A study of Homo sapiens with 15 samples.

Results

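The chromosome 19 zinc finger genes are the protein-coding genes of GENCODE 29 on chromosome 19 whose symbols start with ZNF. The counts table held all 249 of them among its 58395 genes, and they make up 48.3% of the 515 ZNF genes of the annotation. Of the 249, 229 reached at least 1 CPM (counts per library, scaled to a common library size) in at least 3 libraries and were tested among 15544 genes, and 20 did not. The RNA was that of H1299 cells, an established line from a lymph node metastasis of a human lung carcinoma of the non-small cell kind. The cells had grown in RPMI medium with serum and were then kept for 12 h in serum-free RPMI medium of 5 kinds. The media held neither glucose nor glutamine, 5 mM glucose alone, 4 mM glutamine alone, both at those concentrations, or 5 mM glucose together with ammonium given as 4 mM NH4Cl. From each medium 3 poly(A) libraries were made, 15 in total, and every group lacked serum for the same 12 h. The labels speak of triplicate cells and name no separate cultures or days, so the spread that the p-values measure is that between these libraries alone, which may be technical.

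Most ZNF genes of chromosome 19 encode DNA-binding proteins built from tandem C2H2 zinc fingers, each finger held by a zinc ion and reading a few bases. Many also carry a KRAB domain near the N terminus, which binds the corepressor TRIM28 and through it the histone methyltransferase SETDB1, and such proteins are known for silencing transposable elements. The genes arose by repeated local duplication and therefore lie in clusters along the chromosome, where neighbours share much of their sequence.

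Library totals ran from 14914127 to 19938691 counts, so that a floor of 3 counts stood at 0.15 to 0.201 CPM (floors cover counting error only). The carcinoma markers KRT8, KRT18 and VIM reached 155 to 574, 288 to 674 and 1814 to 2656 CPM, whereas KRT7 (1.03 to 2.74 CPM) and EPCAM (0 to 0.799 CPM) were low. The summed level of 5 leukocyte markers was 0.176 to 1.63 CPM, that of 3 endothelial markers 0.115 to 1.28 CPM and that of 5 fibroblast markers 1.02 to 2.99 CPM. TMM scaling factors, which edgeR computes so that most genes stay level between libraries, were 0.798 to 0.8 with neither nutrient and 1.00 to 1.08 in the other media. Levels below are CPM relative to the scaled totals, as mean ± SD of the 3 libraries of a medium (n = 3), and each log2 change is given with its standard error in the fit (SE). Adjusted p-values come from edgeR's quasi-likelihood test with Benjamini-Hochberg adjustment over all 15544 genes, and a gene is called where this is under 0.05. In bulk RNA, fewer cells that use a gene and less RNA of it per cell cannot be told apart.

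The ZNF genes were expressed at low levels. The median over the 229 tested was 9.2 CPM, against 20.7 CPM over all genes tested, and 119 of the 229 lay below 10 CPM while 9 exceeded 50 CPM. All 249 together took 0.242% to 0.444% of the counts of a library. None of the 20 untested genes was without reads, and the highest of them had 152 counts over the 15 libraries. The values just inside the threshold, by the third highest CPM relative to unscaled totals, were 1.01 for ZNF20, 1.13 for ZNF233 and 1.17 for ZNF878. Just outside it were ZNF625 at 0.921, ZNF578 at 0.832 and ZNF98 at 0.798. Relative to unscaled totals, no tested gene reached 1 CPM in a single medium alone. In scaled CPM, 14 had a medium with a mean below 1 CPM.

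ZNF146, which encodes a protein made almost only of zinc fingers with no KRAB domain, had the highest level of the family. It lies at chr19:36214602-36238774 on the plus strand (GRCh38) and reached 55.9 CPM per kilobase of exon as a mean of the 15 libraries. Its level was 213 ± 4.69 CPM with neither nutrient, 271 ± 11.3 with glucose, 265 ± 7.72 with glutamine, 186 ± 3.39 with both and 222 ± 8.27 with glucose and NH4Cl. Per kilobase of exon the next highest were ZNF581 (30.8 CPM per kilobase), ZNF428 (27.9), ZNF302 (13.4), ZNF569 (13), ZNF45 (12.4), ZNF787 (11.3) and ZNF507 (10.8). Of these 8 genes, ZNF302, ZNF569 and ZNF45 encode a KRAB domain and the other 5 do not. ZNF581 overlaps CCDC106 and ZNF580 and shares 14.4% of its 75-base words with other genes of the family, mostly ZNF580. ZNF428 overlaps SRRM5, ZNF146 overlaps ZNF565 and ZNF569 overlaps ZNF570. Whether counting used the strand is not stated in any source used here, so reads of overlapping genes may have been assigned to either or dropped.

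The family as a whole was highest in glucose alone. The summed level of the 249 genes was 3057 ± 24.9 CPM with neither nutrient, 4122 ± 40.2 with glucose, 3401 ± 37.3 with glutamine, 3123 ± 12.2 with both and 3755 ± 42.1 with glucose and NH4Cl. The 3 libraries with glucose alone all lay above every library of the other 4 media, and the 3 with glucose and NH4Cl came next. As a share of unscaled counts the order of these 2 media was the same, at 0.436% to 0.444% and 0.399% to 0.409%. The share was 0.242% to 0.246% with neither nutrient, 0.339% to 0.347% with glutamine and 0.335% to 0.338% with both. The nearness of the sums with neither and with both thus rests on the scaling. Glucose alone was the medium with the highest mean for 110 of the 229 tested genes (48%), a place it held for 21.8% of all genes tested. The medium with neither nutrient was the lowest for 128 (55.9%), against 34.3% of all genes tested. Across media the highest mean was a median of 1.85 times the lowest, against 1.86 times over all genes tested. It was at least 2 times the lowest for 94 genes (41%), against 42.7% of all genes tested. Of the 7 comparisons between media, 18 ZNF genes (7.86%) were called in all 7 and 7 (3.06%) in none, against 13.7% and 2.96% of all genes tested.

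**Figure D1:**
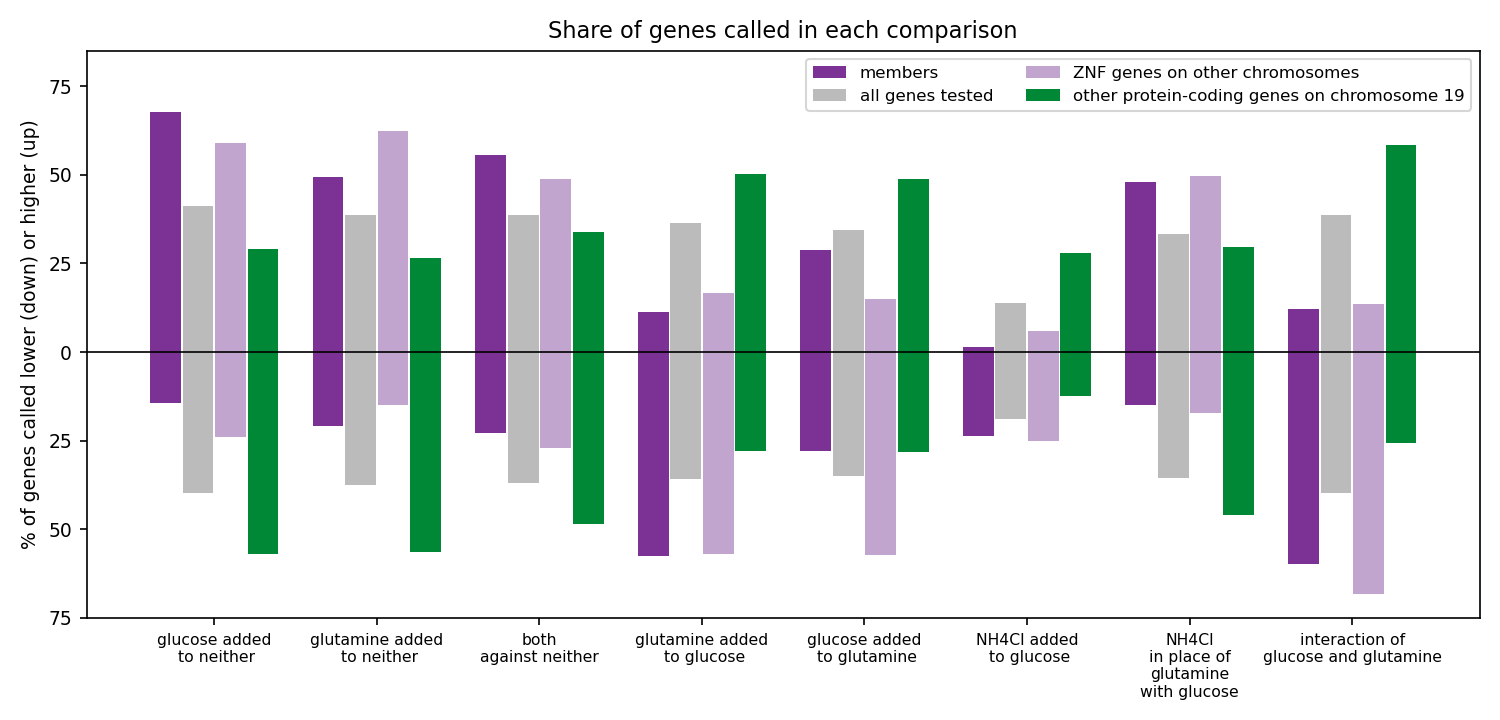
Percent of genes called higher (bars above 0) or lower (bars below 0) by edgeR in the 7 comparisons of media and in the interaction, for the 229 tested chromosome 19 ZNF genes (members), all 15544 genes tested, 234 ZNF genes of other chromosomes and 741 other protein-coding genes of chromosome 19. The ZNF genes of both kinds lean upward when a nutrient is given to cells with neither and downward when glutamine is given to cells with glucose, while the other genes of chromosome 19 lean the opposite way.

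By position, gaps of more than 1 Mb between neighbours divided the genes into 9 clusters of at least 5, which held 238 of the 249, and 11 genes lay outside them. From the short-arm end of the chromosome to that of the long arm, cluster 1 (2.82 to 2.94 Mb) had 5 genes, cluster 2 (7.07 to 9.79 Mb) 16, cluster 3 (11.5 to 12.6 Mb) 26 and cluster 4 (19.7 to 24.1 Mb) 37. On the long arm, cluster 5 (34.7 to 35 Mb) had 5, cluster 6 (36.2 to 37.8 Mb) 26, cluster 7 (43.5 to 45.1 Mb) 24, cluster 8 (51.6 to 53.6 Mb) 40 and cluster 9 (55.5 to 58.5 Mb) 59. The tested genes of cluster 2 had the highest median level, 27.9 CPM, and those of cluster 3 the lowest, 5.87 CPM.

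The summed levels of the clusters did not follow 1 pattern. Cluster 2 stood at 255 ± 5 CPM with neither nutrient, 400 ± 3.17 with glucose, 323 ± 6.96 with glutamine and 248 ± 4.31 with both. Cluster 4 stood at 212 ± 4.71, 410 ± 6.04, 293 ± 4.66 and 350 ± 3.64 CPM in the same media. In scaled CPM, cluster 2 with both nutrients was thus back near the level with neither, at 0.972 times it. Cluster 4 with both nutrients stayed at 1.66 times the level with neither. Cluster 5 was at 150 ± 1.19 CPM with glucose and at 87.6 ± 3.02, 98 ± 3.03 and 100 ± 1.63 CPM with neither, glutamine and both. Cluster 7 varied least among the larger clusters, from 360 ± 9.21 CPM with glutamine to 432 ± 2.56 CPM with glucose. Cluster 1 was at 33.4 ± 0.679 CPM with both nutrients and at 39.3 to 40.1 CPM in the other 4 media. These sums rest on scaling factors of 0.798 to 0.8 with neither nutrient and 1.00 to 1.08 in the other media. On library totals the sums with neither would stand lower beside the others. The order of media, as in clusters 1 and 2, and the spread between media may then differ.

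**Figure D2:**
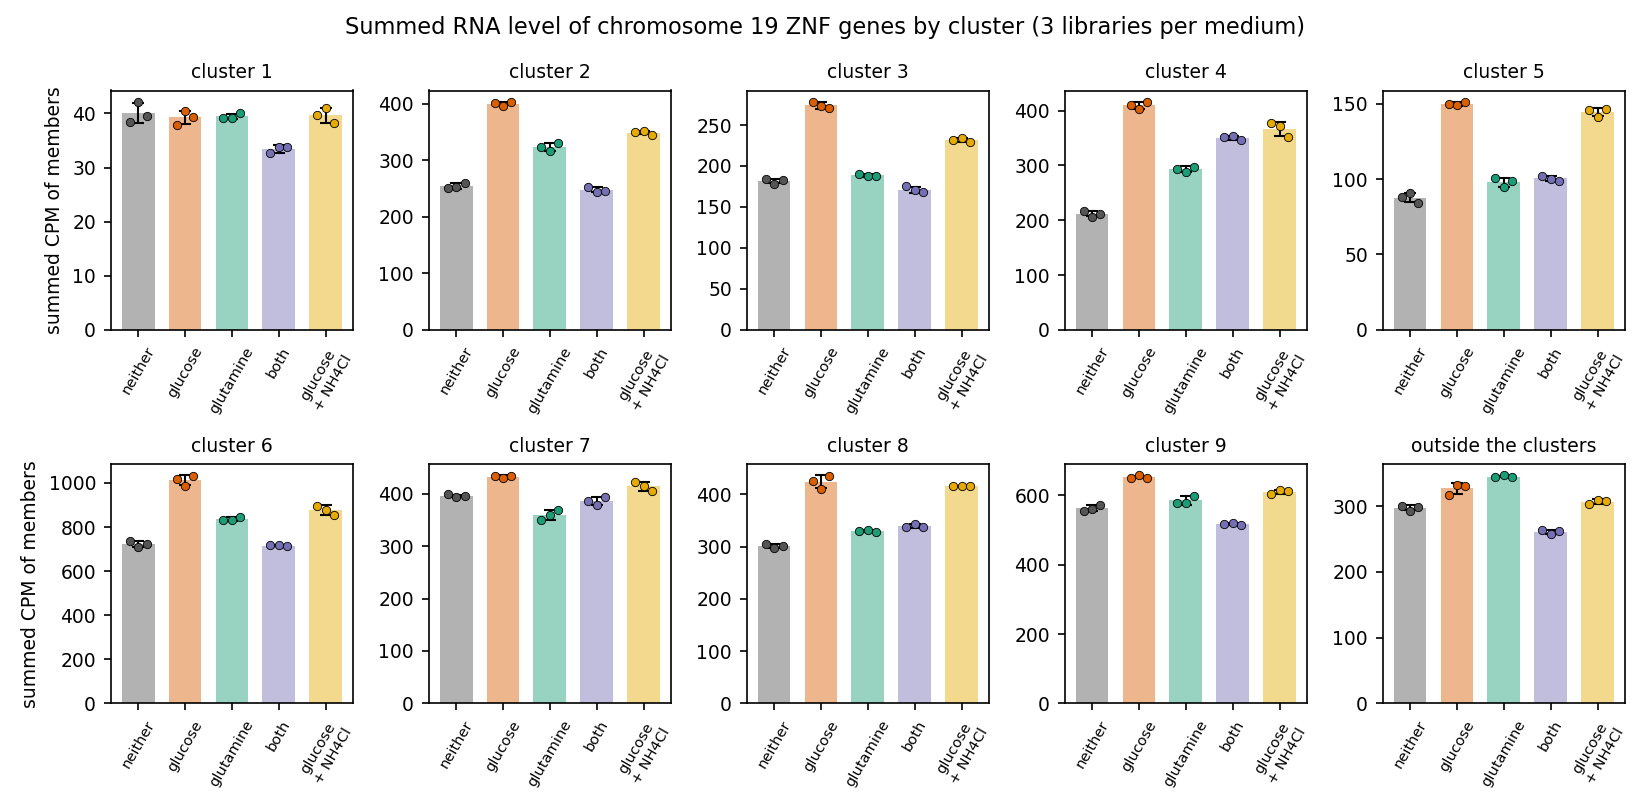
Summed CPM of the ZNF genes of each cluster (y axis, from 0) in the 5 media (x axis). Bars show the mean, error bars the SD and points the 3 libraries. In scaled CPM, glucose alone is the highest medium in clusters 2 to 9. On this scale, cluster 4 is the cluster in which both nutrients together keep the sum well above that with neither (350 against 212 CPM).

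Glucose given alone raised most ZNF genes. Of the 229, 155 were higher and 33 lower than with neither nutrient, where 41.1% of all genes tested were called higher and 39.7% lower (80.8% in either direction), and the median log2 change was 0.60 against 0.03 over all genes tested. In cluster 4, 29 of 32 tested genes were higher and 1 was lower, with a median of 0.95. The shares called higher in the other clusters ran from 33 of 58 in cluster 9 and 13 of 22 in cluster 3 to 10 of 13 in cluster 2 and 4 of 5 in cluster 5. Scaled by library totals alone, which shifts the median of all genes by 0.42, 195 were higher and 15 lower. Measured from the median of all genes, the ZNF genes lay 0.57 higher. Scaling shifts all genes alike, so this distance is the same under either scaling by construction and does not test it.

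The largest rises with glucose were those of ZNF493, ZNF737, ZNF780A, ZNF681 and ZNF558, all of which encode a KRAB domain. ZNF493 (cluster 4, chr19:21397119-21427573) measured 1.53, 0.622 and 1.02 CPM with neither nutrient and 10.1, 9.01 and 11.3 CPM with glucose. The libraries lay far apart, and its log2 change was 3.22 (SE 0.179, adjusted p = 3.01e-37). ZNF493 overlaps the coding gene model AC010615.4. ZNF737 (cluster 4) measured 0.863, 1.4 and 0.862 CPM with neither nutrient and 5.52, 6.44 and 6.55 CPM with glucose, a log2 change of 2.57 (SE 0.197, adjusted p = 4e-26). ZNF681 (cluster 4) measured 2.26, 1.94 and 2.51 CPM with neither and 11.6, 10.4 and 11.6 CPM with glucose, a log2 change of 2.32 (SE 0.142). In these genes each library with glucose exceeded each library with neither by more than 3 times.

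ZNF780A and ZNF558 rose from a higher base. ZNF780A (outside the clusters, chr19:40069152-40090938) measured 8.44, 8.71 and 7.44 CPM with neither nutrient and 39.5, 41.7 and 44.3 CPM with glucose (log2 change 2.35, SE 0.076, adjusted p = 2e-67). Its neighbour ZNF780B, whose protein is 68% identical, measured 9.56, 10.3 and 7.84 CPM and then 38.7, 37.8 and 36.7 CPM. Exact words of 75 bases shared with other genes of the family made up 0.8% and 0.7% of these genes. That measure does not cover shorter reads or reads with mismatches. ZNF558 (cluster 2, chr19:8806170-8832328) measured 10.1, 10.3 and 10.7 CPM with neither and 44, 48.3 and 47.5 CPM with glucose (log2 change 2.17, SE 0.07, adjusted p = 2.62e-67).

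Some ZNF genes went the other way and were highest with neither nutrient. ZNF473 encodes a protein of the U7 snRNP machinery that processes histone pre-mRNA, and it measured 56.7, 57 and 55.9 CPM with neither nutrient against 15.1, 16.4 and 17.1 CPM with glucose. It fell by 1.80 on the log2 scale (SE 0.065, adjusted p = 1.71e-53), and it overlaps VRK3. ZNF460 fell from 6.65 ± 0.985 to 1.92 ± 0.286 CPM (log2 change -1.80, SE 0.177) and ZNF576, which has 4 fingers and no KRAB domain, from 17.3 ± 1.26 to 6.5 ± 0.621 CPM (log2 change -1.41, SE 0.099). ZNF57 fell from 20.6 ± 0.856 to 8 ± 0.418 CPM and ZNF227 from 66.8 ± 0.718 to 33.6 ± 1.13 CPM. In all 5 genes the medium with neither nutrient stood alone in scaled CPM, with every library there above all 12 libraries of the other media. For ZNF576 this order rests on the scaling, since its level with both nutrients was 13.9 ± 1.49 CPM. The scaling factors were 0.798 to 0.8 with neither nutrient and 1.00 to 1.08 in the other media.

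**Figure D3:**
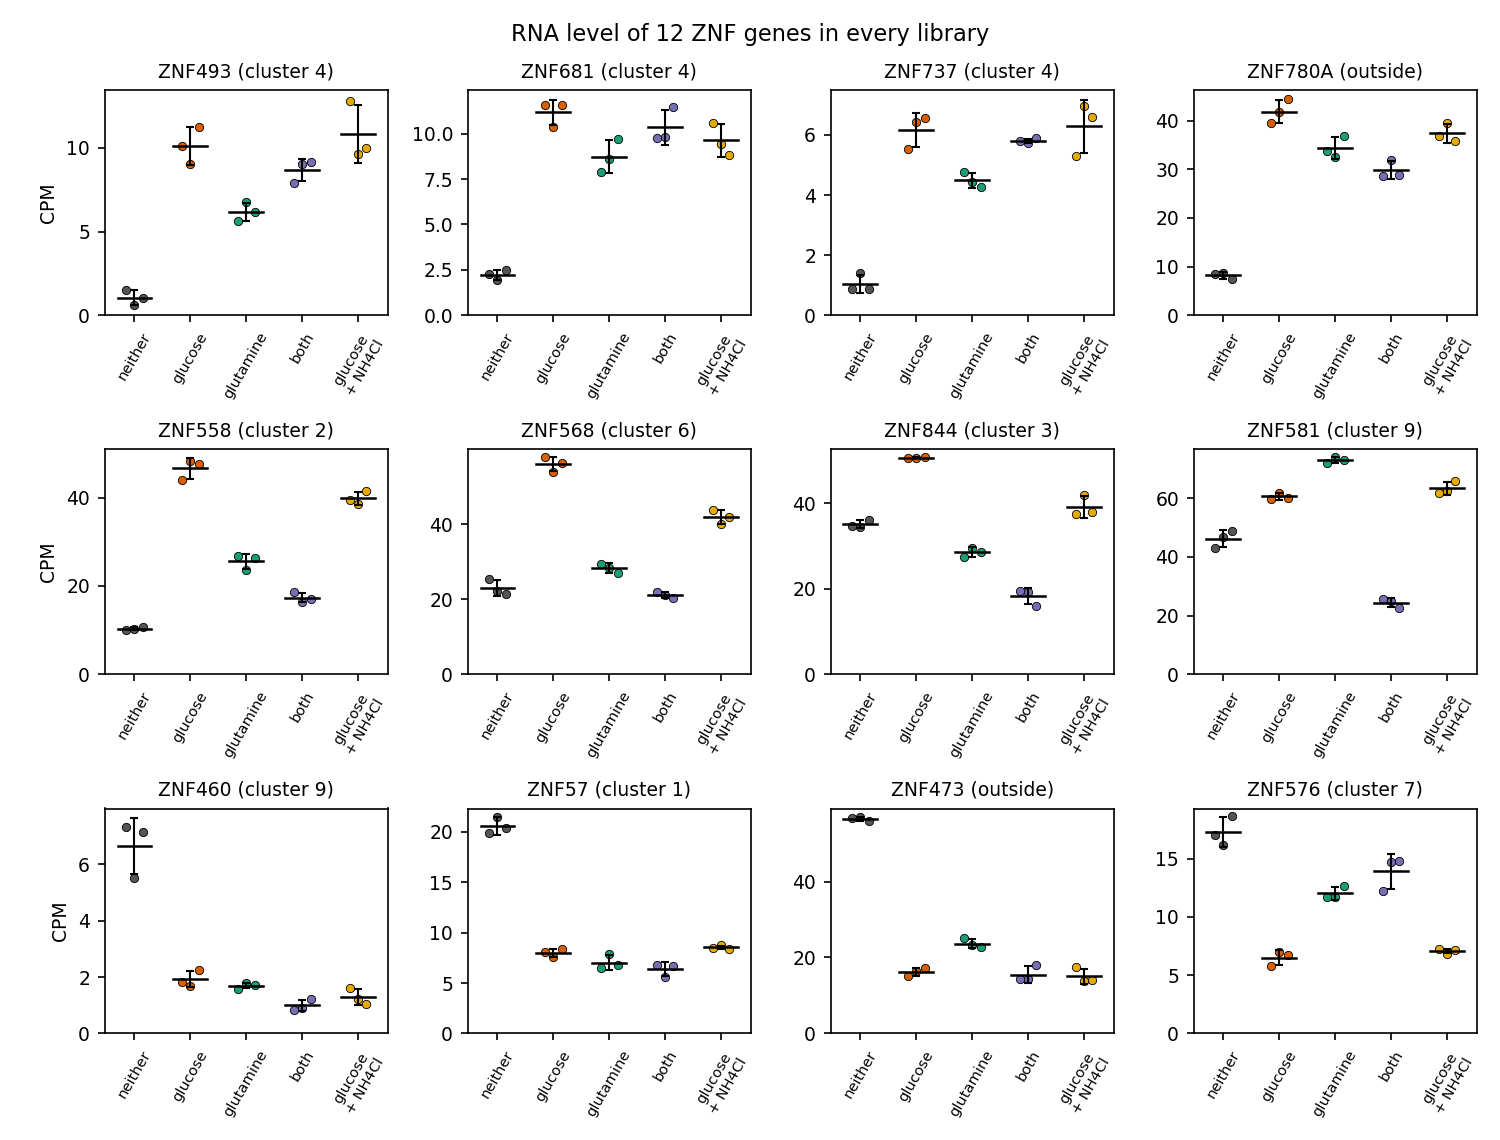
CPM of 12 ZNF genes (y axes, each from 0) in the 15 libraries, by medium (x axes), with the mean (line) and SD (bars) of 3 libraries. The top row shows genes that were lowest with neither nutrient, and the middle row genes that fell when glutamine was added to glucose (ZNF844 from 50.6 to 18.3 CPM). The bottom row shows genes that were highest with neither nutrient in scaled CPM, which for ZNF576 rests on the scaling.

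Glutamine given alone raised fewer ZNF genes. Compared with neither nutrient, 113 were higher and 48 lower, where 38.6% of all genes tested were called higher and 37.6% lower (76.2% in either direction), and the median log2 change was 0.28. Scaled by library totals alone, 167 were higher and 17 lower, with a shift of 0.33 in the median of all genes. The largest rises were again those of ZNF493 (5.62, 6.74 and 6.15 CPM with glutamine, log2 change 2.51, SE 0.197), ZNF737 (4.76, 4.44 and 4.27 CPM, 2.11, SE 0.21), ZNF780A (33.8, 32.4 and 36.8 CPM, 2.06, SE 0.079) and ZNF681 (7.88, 8.59 and 9.69 CPM, 1.96, SE 0.149). ZNF708 (cluster 4) completed the list, from 0.996, 1.55 and 1.96 CPM to 6.72, 5.14 and 5.18 CPM (1.93, SE 0.188). This comparison shares its libraries with neither nutrient with the previous comparison. Among the falls, ZNF460 went to 1.7 ± 0.105 CPM (log2 change -1.97, SE 0.181), ZNF57 to 7.02 ± 0.718 CPM, ZNF473 to 23.7 ± 1.26 CPM, ZNF227 to 33.5 ± 0.95 CPM and ZNF761 from 17.3 ± 1.65 to 8.64 ± 0.358 CPM.

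Both nutrients together raised more ZNF genes than they lowered. Compared with neither, 127 ZNF genes were higher and 52 lower, where 38.8% of all genes tested were called higher and 37% lower (75.8% in either direction), and the median log2 change was 0.29. Scaled by library totals alone, 178 were higher and 21 lower, with a shift of 0.43 in the median of all genes. Cluster 4 held 26 genes that were higher and 3 that were lower of 32, with a median of 1.12, whereas the 197 genes elsewhere held 101 and 49 with a median of 0.19. ZNF708 had its highest level here, 7.86, 7.16 and 7.75 CPM (log2 change 2.36, SE 0.177). The falls included ZNF460, at 0.843, 0.895 and 1.23 CPM against 7.31, 5.52 and 7.13 CPM with neither (log2 change -2.74, SE 0.201, adjusted p = 1.17e-27). ZNF787 fell from 72.3 ± 3.64 to 25.6 ± 1.9 CPM (log2 change -1.5, SE 0.05) and ZNF222 from 16.5 ± 1.84 to 6.77 ± 0.218 CPM (log2 change -1.28, SE 0.097).

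Adding glutamine to cells that had glucose lowered ZNF genes. Of the 229, 132 were lower and 26 higher, where 35.8% of all genes tested were called lower and 36.4% higher (72.2% in either direction), and the median log2 change was -0.28 against 0.01 over all genes tested. The lower genes were the more numerous in each of the 9 clusters. In cluster 2, 9 of 13 were lower, with a median of -0.64, and in cluster 6, 18 of 26 were lower and 1 was higher. The genes at or above the family's median level had 81 of 115 lower (median log2 change -0.33), and those below it 51 of 114 (median -0.22). Genes with more counts are called more readily, so these counts alone do not show a larger change at higher levels.

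The largest falls belonged to ZNF844, ZNF558, ZNF568, ZNF581 and ZNF699. ZNF844 (cluster 3, chr19:12064699-12081565) measured 50.6, 50.5 and 50.8 CPM with glucose and 19.5, 19.3 and 16 CPM with both nutrients (log2 change -1.47, SE 0.057, adjusted p = 2.11e-57). ZNF568 (cluster 6), whose mouse counterpart represses a placental transcript of Igf2, measured 57.9, 54 and 56.3 CPM with glucose and 22, 21.1 and 20.4 CPM with both (log2 change -1.41, SE 0.054). In scaled CPM its libraries with both nutrients overlapped those with neither, at 25.4, 22.2 and 21.4 CPM (log2 change -0.13, adjusted p = 0.0732). This overlap rests on the scaling, since library totals alone shift the median of all genes by 0.43 in this comparison. ZNF844, in contrast, was lower with both than its 34.7, 34.4 and 36.1 CPM with neither (log2 change -0.94, adjusted p = 5.64e-31). ZNF558 went to 18.6, 16.5 and 17.1 CPM (log2 change -1.42, SE 0.059), between its levels with neither nutrient and with glucose. ZNF581, which has 4 fingers and no KRAB domain, measured 59.8, 61.9 and 60.2 CPM with glucose and 25.6, 24.9 and 22.7 CPM with both (log2 change -1.31, SE 0.049, adjusted p = 1.04e-58). ZNF699 went from 14.3 ± 0.488 to 6.29 ± 0.798 CPM (log2 change -1.19, SE 0.103).

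The few rises with glutamine were small in absolute level. ZNF576 went from 6.5 ± 0.621 to 13.9 ± 1.49 CPM (log2 change 1.10, SE 0.099), which in scaled CPM undid part of its fall with glucose. ZNF730, of cluster 4, measured 3.03, 2.63 and 3.42 CPM with glucose and 5.67, 6.74 and 5.77 CPM with both nutrients (log2 change 1.00, SE 0.152, adjusted p = 2.24e-09). ZNF628 rose from 3.82 ± 0.493 to 7.11 ± 0.248 CPM, ZNF835 from 1.15 ± 0.179 to 2.44 ± 0.174 CPM, ZNF324B from 2.28 ± 0.161 to 4.02 ± 0.562 CPM and ZNF556 from 7.32 ± 0.596 to 11.3 ± 1.27 CPM. Of these, ZNF324B shares 13.2% of its 75-base words with other genes of the family, so some of its reads could be theirs.

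For glutamine added to glucose, the genes with the smallest p of their clusters are listed next. These were ZNF555 in cluster 1 (log2 change -0.72, SE 0.108), ZNF558 in cluster 2, ZNF844 in cluster 3 and ZNF85 in cluster 4 (-0.88, SE 0.077). In clusters 5 to 9 they were ZNF302 (-0.60, SE 0.037), ZNF569 (-1.19, SE 0.041), ZNF576 (a rise, 1.10, SE 0.099), ZNF677 (-0.79, SE 0.055) and ZNF581. The highest genes of clusters 2 and 3 were others, ZNF317 (35.3 ± 1.34 CPM with both nutrients to 65.4 ± 1.75 with neither) and ZNF791 (20.8 ± 0.458 CPM with neither to 55.2 ± 0.521 with glucose). ZNF569 measured 88, 84.6 and 86.7 CPM with glucose and 38.5, 36.9 and 38.1 CPM with both nutrients. ZNF677 is a gene known to be silenced by promoter methylation in many lung carcinomas, and it had the highest level of cluster 8 here. It measured 46.8, 41 and 45.5 CPM with glucose, 24.2, 27.1 and 25.8 CPM with both, and 15.1, 14.2 and 13.9 CPM with neither nutrient.

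Adding glucose to cells that had glutamine split the family evenly. Of the 229 genes, 66 were higher and 64 lower, where 34.3% of all genes tested were called higher and 35% lower (69.4% in either direction), and the median log2 change was -0.01, the same as over all genes tested. Scaled by library totals alone, 80 were higher and 48 lower, and the median of the family was 0.09, as was that of all genes. The clusters divided, with 21 of 32 genes higher and 3 lower in cluster 4 (median 0.31) and 1 of 13 higher and 10 lower in cluster 2 (median -0.33). Outside cluster 4, 45 of 197 genes were higher and 61 lower. Of the 155 genes that glucose alone raised, 52 were also higher when glucose was added to glutamine, 38 were lower and 65 were not called. These comparisons share no libraries.

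**Figure D4:**
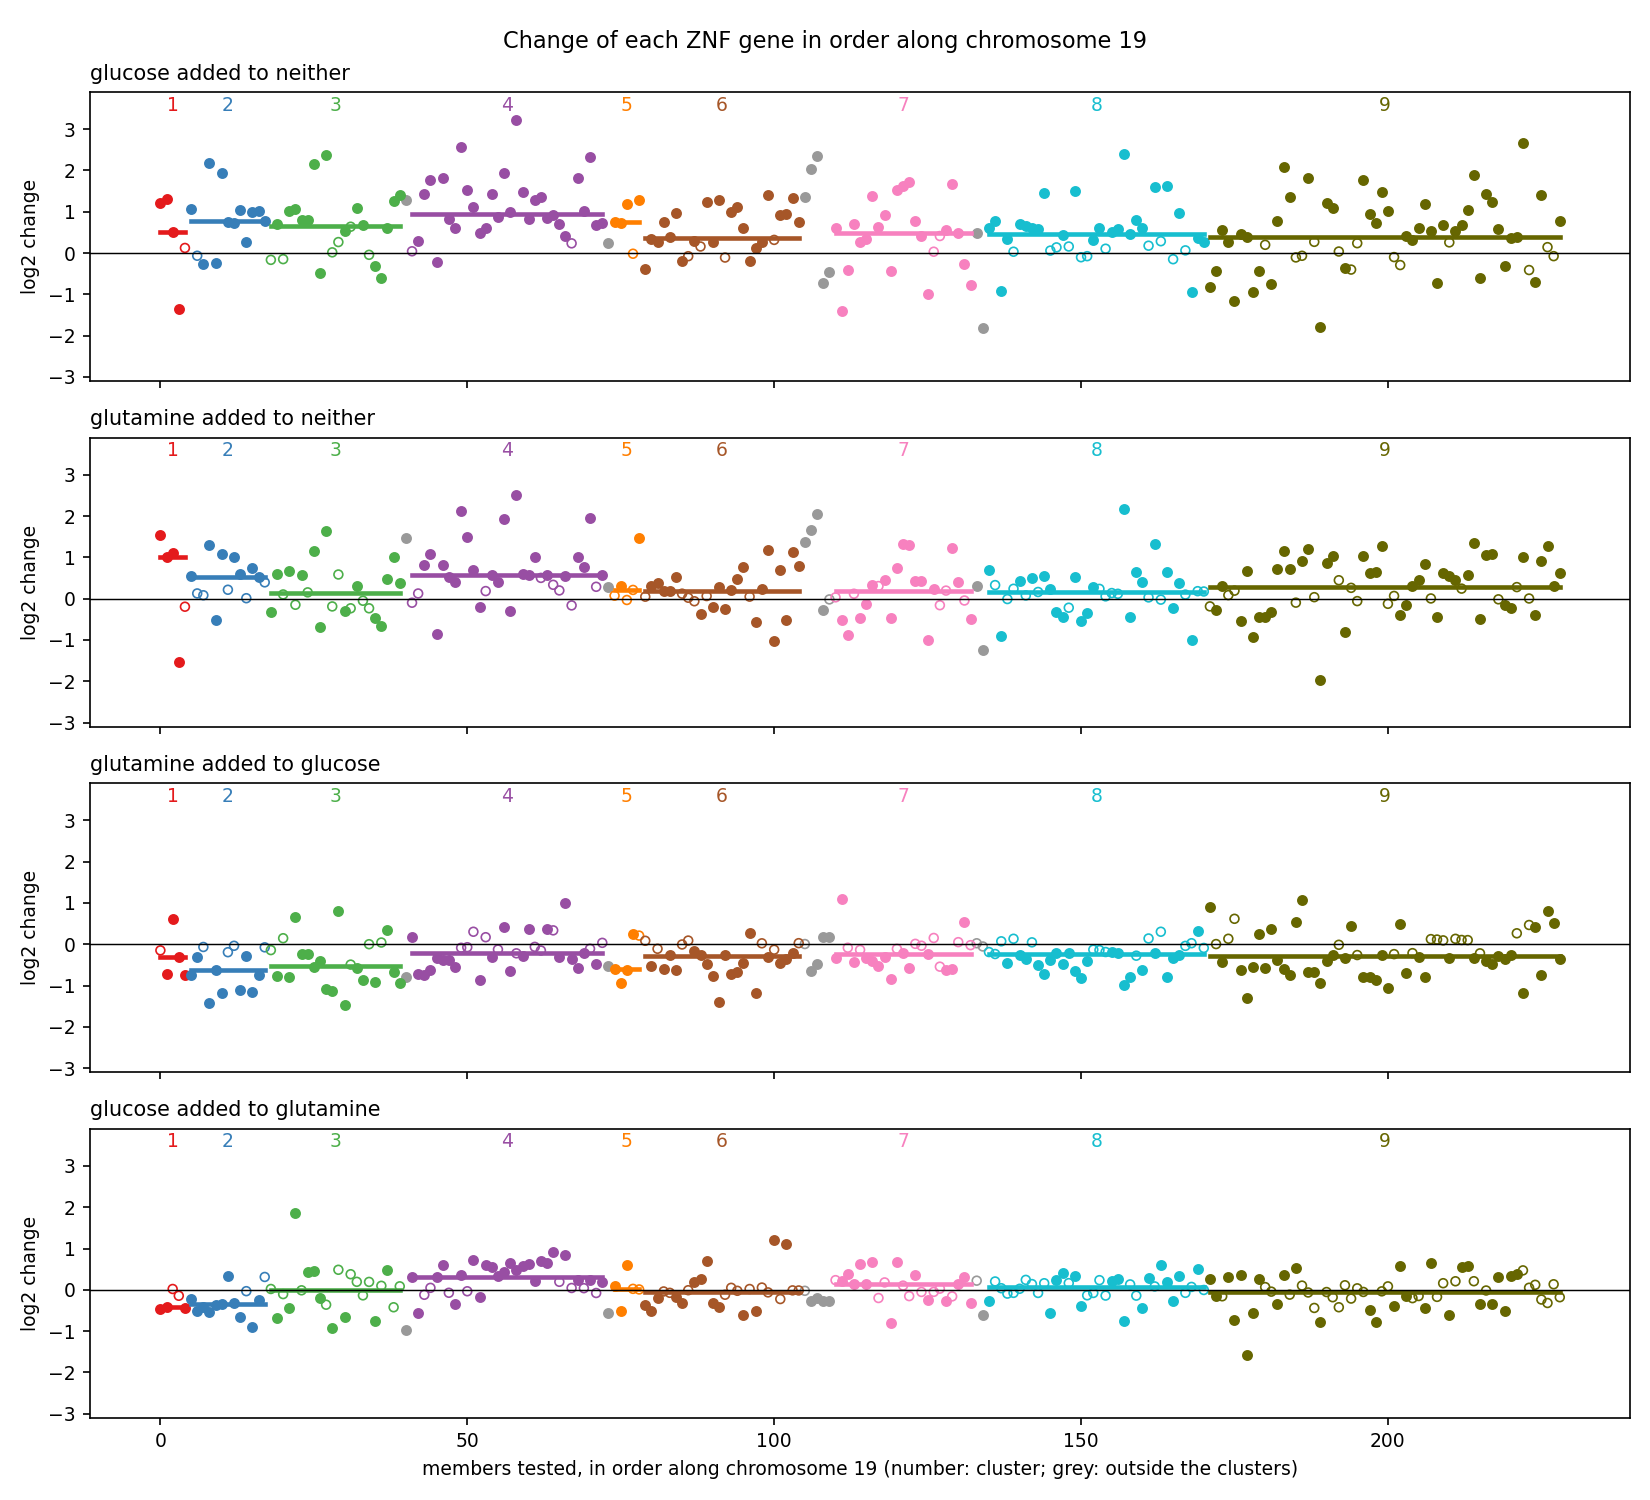
Log2 change of each of the 229 tested ZNF genes (y axis) in order along chromosome 19 (x axis, rank by position) in 4 comparisons. Filled points were called by edgeR, open points were not, colours and numbers mark the 9 clusters, grey points lie outside them and lines are cluster medians. The genes of cluster 4 lie mostly above 0 when glucose is added to glutamine (median 0.31), while those of cluster 2 lie mostly below 0 (median -0.33).

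ZNF581 showed the largest fall when glucose was added to glutamine, from 72.1, 74 and 73 CPM to 25.6, 24.9 and 22.7 CPM (log2 change -1.58, SE 0.048, adjusted p = 3.65e-71). It was thus higher with either nutrient alone than with neither (43, 46.9 and 48.7 CPM) and lowest with both. ZNF333 fell from 18.4 ± 1.11 to 9.41 ± 0.22 CPM, ZNF433 from 6.79 ± 0.603 to 3.54 ± 0.415 CPM, ZNF561 from 44 ± 1.42 to 23.6 ± 1.85 CPM and ZNF222 from 11.9 ± 0.324 to 6.77 ± 0.218 CPM. ZNF781, which has 3 fingers, rose from 7.45, 7.09 and 8.9 CPM to 17.3, 16.4 and 16.5 CPM (log2 change 1.11, SE 0.088, adjusted p = 1.29e-24), and it overlaps ZFP30. ZNF730 rose by 0.84 on the log2 scale (SE 0.149), ZNF345 by 0.69 (SE 0.115), ZNF284 by 0.67 (SE 0.165) and ZNF221 by 0.66 (SE 0.114).

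NH4Cl added to glucose changed few ZNF genes, and those it changed mostly fell. Of the 229, 54 were lower and 3 higher, where 18.8% of all genes tested were called lower and 13.9% higher (32.7% in either direction), and the median log2 change was -0.10 against -0.01 over all genes tested. Cluster 2 held 8 of the lower genes among 13 tested (median -0.19) and cluster 6 held 11 among 26 (median -0.15). Cluster 4 held 11 among 32 (median -0.16) and cluster 3 held 7 among 22 (median -0.20). Genes with more counts are called more readily, and the median level was highest in cluster 2 and lowest in cluster 3. The clusters were not tested against each other. The largest falls were those of ZNF888 (11.6, 13.6 and 13.6 CPM with glucose and 8.81, 8.1 and 7.91 CPM with NH4Cl added, log2 change -0.64, SE 0.102), ZNF492 (-0.59, SE 0.114), ZNF136 (-0.52, SE 0.086), ZNF699 (-0.48, SE 0.095) and ZNF850 (-0.44, SE 0.056). ZNF492 shares 91% of its protein sequence with ZNF98, so its counts are uncertain. By edgeR's test against a 1.2-fold change 7 genes were called lower, and with no filter on low counts 34 were called lower.

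The 3 genes called higher with NH4Cl were ZNF841 (log2 change 0.31, SE 0.116, adjusted p = 0.0315), ZNF579 (0.18, SE 0.071, adjusted p = 0.0378) and ZNF226 (0.15, SE 0.058, adjusted p = 0.0281). ZNF841 measured 6.95, 5.85 and 8.56 CPM with glucose and 8.75, 8.73 and 8.91 CPM with NH4Cl, so the margin between the media was small. By the DESeq2 Wald test none of the 229 was called higher and 5 had an unadjusted p under 0.05 in that direction, and these 3 had adjusted p-values of 0.0818, 0.0722 and 0.065. In the edgeR fit, leaving out either of replicates 1 and 2 with NH4Cl left 0 called higher (6 by unadjusted p in each case), leaving out glucose replicate 1 left 1 and leaving out glucose replicate 3 gave 5.

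With glucose present, NH4Cl did not give the levels that glutamine gave. Compared with both nutrients, the medium with glucose and NH4Cl had 110 ZNF genes higher and 34 lower, where 33.2% of all genes tested were called higher and 35.6% lower (68.8% in either direction), and the median log2 change was 0.22. The largest rises were those of ZNF581 (61.7, 62.3 and 65.9 CPM with NH4Cl, log2 change 1.38, SE 0.049), ZNF558 (1.19, SE 0.061), ZNF844 (1.10, SE 0.06), ZNF561 (1.08, SE 0.054) and ZNF568 (0.99, SE 0.057). These libraries with both nutrients also serve the comparison with glucose alone. Lower with NH4Cl than with glutamine were ZNF628 (log2 change -1.05, SE 0.136), ZNF576 (-0.98, SE 0.098), ZNF835 (-0.85, SE 0.23), ZNF730 (-0.82, SE 0.15), ZNF257 (-0.73, SE 0.105) and ZNF324B (-0.72, SE 0.177). ZNF257, a gene of cluster 4, measured 13.8, 12.2 and 12.3 CPM with both nutrients and 8.75, 7.12 and 7.16 CPM with NH4Cl.

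The interaction of the nutrients was called for 165 of the 229 genes (72.1%), a smaller share than over all genes tested, and mostly below 0. The interaction, the change with both nutrients beyond the sum of the separate log2 changes, was below 0 for 137 ZNF genes and above 0 for 28, where 39.7% of all genes tested were called lower and 38.7% higher (78.5% in either direction). Its median was -0.49 against -0.02 over all genes tested. Scaled by library totals alone, 174 were below and 13 above 0, with a shift of -0.32 in the median of all genes. The largest values below 0 were those of ZNF493 (-2.73, SE 0.228), ZNF558 (-2.72, SE 0.098), ZNF780A (-2.55, SE 0.097), ZNF780B (-2.30, SE 0.098) and ZNF699 (-2.28, SE 0.17). ZNF493 stood at 10.1 ± 1.13 CPM with glucose, 6.17 ± 0.56 with glutamine and 8.69 ± 0.671 with both, while ZNF558 was lower with both than with either alone. Above 0 were ZNF576 (1.63, SE 0.132), ZNF57 (1.22, SE 0.148), ZNF473 (1.2, SE 0.099), ZNF628 (1.08, SE 0.185) and ZNF460 (1.02, SE 0.321), of which ZNF576, ZNF57, ZNF473 and ZNF460 had fallen with either nutrient alone.

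The genes of cluster 4 were mostly higher in media with a nutrient than with neither. Of its 32 tested genes 29 were higher and 1 lower with glucose alone, and 21 were higher and 3 lower when glucose was added to glutamine. When glutamine was added to glucose 16 were lower and 5 higher, and with NH4Cl in place of glutamine 10 were higher and 9 lower. The cluster spans chr19:19668796-24129961 from ZNF101 to ZNF254, and no other protein-coding gene inside that interval passed the filter. The medium with neither nutrient was the lowest for 26 of its 32 tested genes, and glucose alone was the highest for 18 and both nutrients for 9. Its best known genes were chosen here after their values were seen. ZNF91, known to repress SVA elements, measured 7.11, 7.07 and 6.89 CPM with neither nutrient, 23.7, 25.1 and 25.4 with glucose, 15.3, 13.5 and 13.8 with glutamine and 16.9, 17.2 and 15.9 with both. Every library with a nutrient exceeded every library with neither, and the log2 change with glucose was 1.81 (SE 0.089, adjusted p = 7.85e-45). ZNF93, known to repress LINE-1 elements, was the gene of the cluster called lower with glucose alone. It measured 19.8, 15.1 and 18.4 CPM with neither nutrient and 15.3, 15.8 and 15 CPM with glucose (log2 change -0.21, SE 0.083, adjusted p = 0.0146), ranges that overlap. The most abundant gene of the cluster, ZNF714, stood at 14.4 ± 0.647 CPM with neither, 38.5 ± 1.38 with glucose, 21.3 ± 1.2 with glutamine and 31 ± 0.416 with both.

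**Figure D5:**
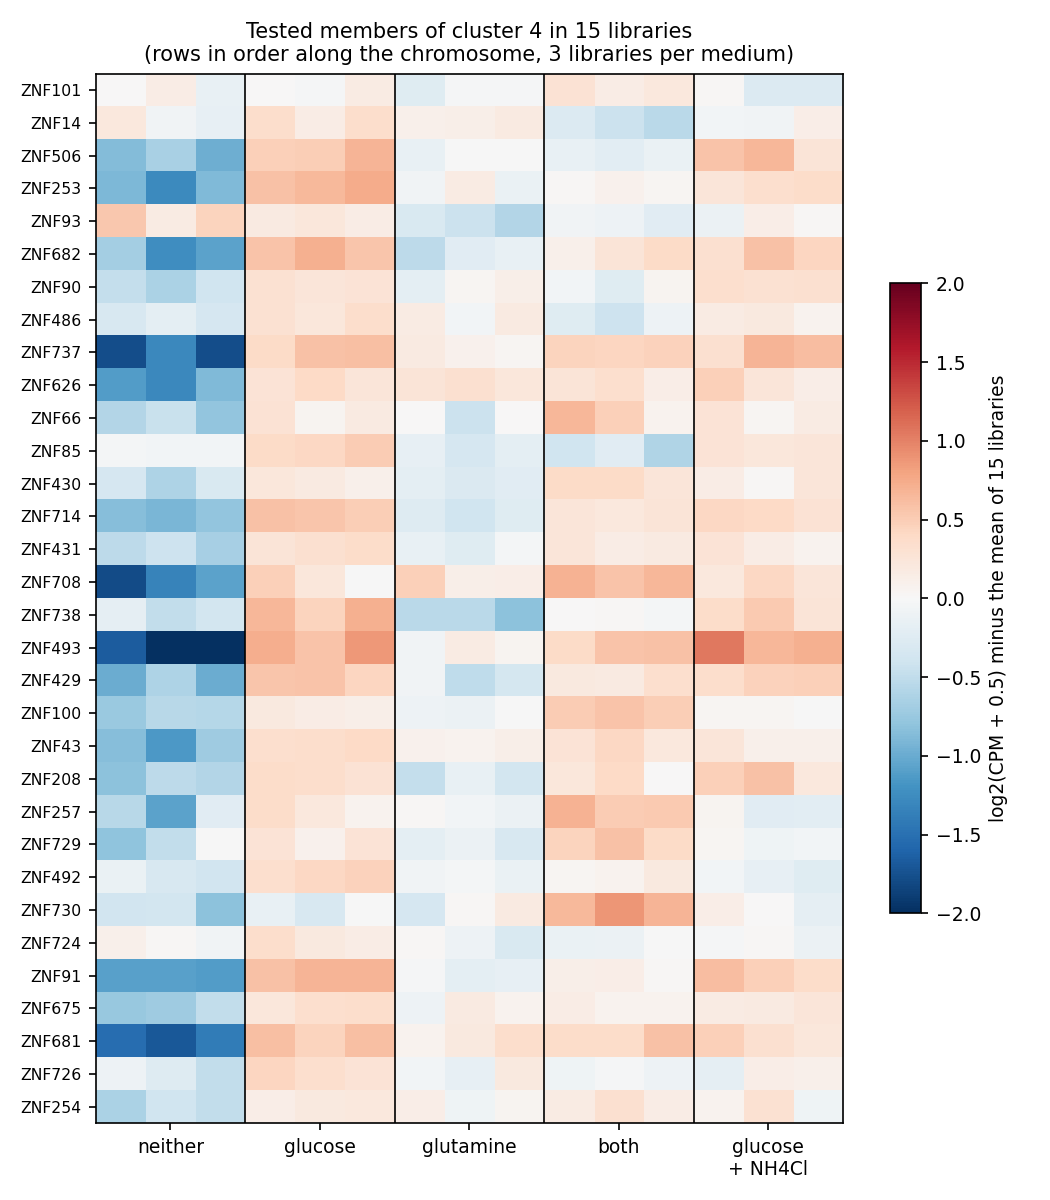
Heat map of the 32 tested genes of cluster 4 (rows, in order along the chromosome) in the 15 libraries (columns, 3 per medium), coloured by log2(CPM + 0.5) minus the mean of the gene over all libraries. Most rows are blue with neither nutrient and red with glucose alone, and ZNF93 is red with neither nutrient (17.8 CPM) and blue with glutamine (9.82 CPM).

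The start regions of the genes of cluster 4 are alike. The RefSeq table of promoters (GRCh38.p14) held a window of 300 bases, 250 before and 50 after the start, for 217 of the 249 genes, and the window listed first was used where a gene has several. The CCAAT box, the letters CCAAT on either strand, was present in all 29 windows of cluster 4, all 5 of cluster 1 and 23 of 25 of cluster 3, against 53.9% of the family and 35.7% of the 27305 genes in the table. The 10 letters CCTGATTGGA on either strand, which contain a CCAAT box on the other strand, were in 26 of 29 windows of cluster 4, 15 of 25 of cluster 3, 3 of 5 of cluster 1 and 0 of the other clusters, against 0.388% of all genes. A further word, CTGTCACTCA, was in 22 of 29 windows of cluster 4 and 12 of 25 of cluster 3, against 0.385% of all genes. These are the most frequent word of cluster 4 and the next that does not overlap it, both were chosen after looking at these windows, and genes that arose by duplication share sequence whatever their regulation. The ETS site CCGGAAGT was in 0 windows of cluster 4 and in 48.1% of those of cluster 9, against 4.44% of all genes. Its variant CCGGAAGC, searched because a longer word with these letters was frequent in cluster 4, was in 21 of 29 windows of cluster 4, 0 of 25 of cluster 3 and 7 of 54 of cluster 9, against 3.9% of all genes. Windows of cluster 4 held a median of 10 CpG dinucleotides, against 20 in the family and 14 over all genes.

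The 150 bases before the start are given below, with CCAAT boxes on either strand in capitals. Of cluster 4 they are those of ZNF737, ZNF493, ZNF681 and ZNF708, which are among the largest rises named above. ZNF43 of the same cluster was added after its values were seen, and its changes are not given here. They are followed by 3 genes of other places that fell when glutamine was added to glucose. Each is written 5′ to 3′ along the strand of its gene. The cluster 4 windows are chr19:20565782-20565931 (minus strand) for ZNF737, chr19:21396983-21397132 (plus) for ZNF493, chr19:23758892-23759041 (minus) for ZNF681, chr19:21329411-21329560 (minus) for ZNF708 and chr19:21836183-21836332 (minus) for ZNF43. The others are chr19:12064581-12064730 (plus) for ZNF844 of cluster 3, chr19:40090944-40091093 (minus) for ZNF780A outside the clusters and chr19:8832305-8832454 (minus) for ZNF558 of cluster 2.
ZNF737: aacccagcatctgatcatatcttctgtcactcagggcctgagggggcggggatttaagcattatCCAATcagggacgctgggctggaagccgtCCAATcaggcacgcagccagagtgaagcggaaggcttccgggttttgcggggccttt
ZNF493: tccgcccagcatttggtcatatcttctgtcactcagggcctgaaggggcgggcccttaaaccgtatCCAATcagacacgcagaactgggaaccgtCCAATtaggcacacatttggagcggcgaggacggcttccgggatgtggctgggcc
ZNF681: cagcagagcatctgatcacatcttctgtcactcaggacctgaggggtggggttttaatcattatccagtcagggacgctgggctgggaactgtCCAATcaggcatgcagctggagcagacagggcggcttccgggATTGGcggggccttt
ZNF708: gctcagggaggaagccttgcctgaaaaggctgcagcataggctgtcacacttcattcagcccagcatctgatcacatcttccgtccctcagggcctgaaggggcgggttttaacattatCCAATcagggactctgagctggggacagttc
ZNF43: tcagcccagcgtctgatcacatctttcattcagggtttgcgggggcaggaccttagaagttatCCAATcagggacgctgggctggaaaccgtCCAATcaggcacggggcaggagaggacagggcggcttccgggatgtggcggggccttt
ZNF844: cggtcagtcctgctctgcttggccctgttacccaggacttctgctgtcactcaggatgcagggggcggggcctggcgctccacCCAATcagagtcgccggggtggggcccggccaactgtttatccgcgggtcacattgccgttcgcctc
ZNF780A: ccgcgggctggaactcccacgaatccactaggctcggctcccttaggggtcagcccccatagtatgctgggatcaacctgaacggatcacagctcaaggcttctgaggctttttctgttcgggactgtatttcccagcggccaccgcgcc
ZNF558: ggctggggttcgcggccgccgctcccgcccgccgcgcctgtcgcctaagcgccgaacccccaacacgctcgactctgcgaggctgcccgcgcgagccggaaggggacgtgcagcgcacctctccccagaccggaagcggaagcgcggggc

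The 5 windows of cluster 4 hold 1 or 2 CCAAT boxes each, ZNF844 of cluster 3 holds 1, and those of ZNF780A and ZNF558 hold 0. The CpG count was 2 to 9 in the cluster 4 stretches, 9 in that of ZNF780A, 10 in that of ZNF844 and 24 in that of ZNF558. Among the tested genes with a window, 32 of 40 with the word CCTGATTGGA were higher with glucose alone and 2 lower (median log2 change 0.81), against 104 higher and 29 lower of 163 without it (median 0.52). Most genes with the word lie in cluster 4. There 23 of 26 with the word were higher (median 0.85), no more than in the whole cluster, with 29 of 32 (median 0.95). Within cluster 3, 8 of 11 with the word were higher (median 0.80), and of 10 without it 4 were higher and 3 lower (median 0.24). Outside cluster 4, 9 of 14 with the word were higher and 1 was lower (median 0.66), and of 161 without it 102 were higher and 29 lower (median 0.49). Of these 14, 11 are the genes of cluster 3 just given, so the counts are not separate. Whether the word goes with the change was not tested. A match to these letters describes the window and does not show that a factor binds there.

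By protein features, 215 of the 249 genes encode a KRAB A box in a GENCODE 29 transcript and 34 do not, and the median number of C2H2 fingers was 12 with a highest count of 36. With glucose alone 138 of 197 tested KRAB genes were higher and 22 lower (median 0.64), and 17 of 32 without the box were higher and 11 lower (median 0.26). With both nutrients against neither, the counts were 117 higher and 37 lower of the KRAB genes (median 0.35) and 10 higher and 15 lower of the others (median -0.18). When glutamine was added to glucose the medians were close, at -0.27 and -0.29. Genes with at most 9 fingers had a median of 0.41 with glucose alone, those with 10 to 14 fingers 0.66 and those with at least 15 fingers 0.62. These differences between kinds of gene were not tested.

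Shared sequence and overlaps leave some counts uncertain. The pairs ZNF98 and ZNF492, ZNF585A and ZNF585B, and ZNF587 and ZNF417 have proteins at least 90% identical, and 14 genes share more than 20% of their 75-base words with other genes of the family. How reads with several matching places were counted is not stated in any source used here. Of the 121 tested genes with no overlapping coding gene and at most 1% shared words, 88 were higher and 18 lower with glucose alone, and 67 were lower and 18 higher when glutamine was added to glucose. The remaining 108 had 67 higher and 15 lower, and 65 lower and 8 higher, in the same comparisons.

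The ZNF genes of other chromosomes were also mostly higher with glucose alone. With glucose alone 138 of 234 were higher and 56 lower (median 0.42), and with glutamine added to glucose 39 were higher and 133 lower (median -0.24). When glucose was added to glutamine, 35 were higher and 134 lower (median -0.32), where the chromosome 19 genes had 66 and 64. The other protein-coding genes of chromosome 19 leaned the opposite way, with 215 higher and 422 lower of 741 with glucose alone (median -0.30) and 373 higher and 207 lower with glutamine added to glucose (median 0.16). Inside the cluster intervals themselves, 78 other coding genes were tested, of which 22 were higher and 37 lower with glucose alone (median -0.20). Among 19 tested genes from a list of zinc finger genes of chromosome 19 with other names, such as ZFP, ZSCAN and KLF genes, 11 were higher and 5 lower with glucose alone. With glutamine added to glucose 6 of them were higher and 9 lower, and with glucose added to glutamine 10 were higher and 4 lower. With NH4Cl added to glucose 4 were higher and 1 lower, where the chromosome 19 ZNF genes had 3 and 54. These comparisons between kinds of gene are counts side by side and were not tested.

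Corepressors and chromatin proteins that work with KRAB domains changed in both directions. Of a list of 32 corepressor and chromatin genes, all tested, 8 were higher and 18 lower with glucose alone (median log2 change -0.18), where 41.1% of all genes tested were called higher and 39.7% lower. When glutamine was added to glucose 18 were higher and 11 lower (median 0.17), where 36.4% of all genes tested were called higher and 35.8% lower. Whether the list differs from the ZNF genes was not tested. TRIM28, the corepressor that KRAB domains bind, stood at 504 ± 11.2 CPM with neither nutrient, 263 ± 6.69 with glucose, 419 ± 6.64 with glutamine, 378 ± 14.8 with both and 283 ± 11.3 with glucose and NH4Cl. It was thus lowest with glucose alone, the medium in which the summed ZNF level was highest, with a log2 change of -0.94 (SE 0.024, adjusted p = 1.38e-52) against neither. SETDB1, the methyltransferase, stood at 32.1 ± 1.76, 55.3 ± 0.382, 65.7 ± 1.45, 40.6 ± 1.96 and 55.1 ± 2.11 CPM in the same order, and rose by 0.78 with glucose alone (SE 0.05) and by 1.03 with glutamine alone (SE 0.049), and fell by 0.45 when glutamine was added to glucose. The largest changes of the list with glucose alone were those of UHRF1 and DNMT1, which maintain DNA methylation after replication. UHRF1 fell by 1.72 with glucose alone (SE 0.031) and rose by 1.60 when glutamine was added to glucose (SE 0.031), and DNMT1 fell by 1.51 (SE 0.023) and rose by 0.94 (SE 0.024), on the log2 scale.

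ZNF493 had the widest spread of medium means on the scale of log2(CPM + 1), 2.52 from the lowest to the highest. The genes of the family most like it by Pearson's r over the 15 libraries were ZNF224 of cluster 7 (r = 0.975), ZNF681 of cluster 4 (0.973) and ZNF793 of cluster 6 (0.965). These values are descriptive, since the libraries share their media and scaling. ZNF224, known as a repressor of the aldolase A gene, stood at 5.5 ± 0.414 CPM with neither nutrient and at 13.8 ± 0.205 to 18.8 ± 1.52 CPM in the other media. ZNF793 stood at 14.3 ± 1.25 CPM with neither and at 31.1 ± 0.164 to 38.8 ± 0.718 CPM in the others. All 3 share with ZNF493 a low level with neither nutrient and nearby levels in the other 4 media.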

How the data were processed

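RNA of 15 H1299 libraries, 3 in each of 5 media, was measured by poly(A) RNA-seq. The authors deposited raw counts per gene, per the file headers. HISAT2 2.1.0, featureCounts, Subread 1.5.1 and the build GRCh38.p12 appear in the submitters' processing notes, and 58275 of the 58395 gene IDs are in GENCODE 29 while 120 are not. No source used here states how strand or reads with several matching places were handled. Library totals were 14914127 to 19938691 counts.

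Counts were fitted with edgeR 4.0.16 (R 4.3.3; TMM scaling, robust quasi-likelihood F test, all 15 libraries in 1 fit with 10 residual degrees of freedom). The 15544 genes with at least 1 CPM in at least 3 libraries were tested, with Benjamini-Hochberg adjustment over all of them and a threshold of 0.05. The fit was also run on simulated counts in which few genes differed between media, so that run does not check the scaling. The alternatives tried were DESeq2 1.42.0 (size factors and Wald test), library totals alone, 3 other filters on low counts, a fit of the compared media alone, the replicate number as a block, a test against a 1.2-fold change, leaving out each library, and a gap of 0.5 Mb between clusters. KRAB A boxes were called with a weight matrix of 41 residues built from 164 of the genes' proteins, at a limit of 20 bits (lowest score called 23.5, highest not called -59.2), and fingers by the pattern of paired cysteines and histidines, in translated GENCODE 29 transcripts, where RefSeq proteins had been planned. Promoter windows came from RefSeq (GRCh38.p14).

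The genes named are the 8 with the highest level per kilobase, the 5 largest rises and falls of each comparison (called, averaging 2 CPM or more, libraries not overlapping), up to 3 of the rarer direction, the highest and the smallest-p gene of each cluster, the 3 on either side of the threshold, the genes most like that with the widest spread, and of the corepressors TRIM28, SETDB1 and the 2 largest changes. ZNF91, ZNF93 and ZNF43 lie outside this rule and were chosen after their values were seen. The genes and lists were chosen with earlier results of these data known. 1 of the listed marker genes is not reported here.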

Additional observations from a re-analysis of the deposited data

Results flagged for a closer look

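The effect of 1 nutrient differed with the presence of the other for 165 of 229 ZNF genes, by the interaction term of the edgeR fit. It was called below 0 for 137 genes and above 0 for 28, where 39.7% of all genes tested were called below 0 and 38.7% above it (78.5% in either direction). The largest values below 0 were -2.73 for ZNF493, -2.72 for ZNF558, -2.55 for ZNF780A, -2.30 for ZNF780B and -2.28 for ZNF699. The largest values above 0 were 1.63 for ZNF576, 1.22 for ZNF57, 1.2 for ZNF473, 1.08 for ZNF628 and 1.02 for ZNF460. All are log2 values with adjusted p under the threshold.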

How the results depend on the processing

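Scaling by library totals alone lowered the counts of genes called lower against neither nutrient to 15 with glucose, 17 with glutamine and 21 with both, and those with an interaction above 0 to 13, since it shifts all genes. Against a 1.2-fold change, 30 genes were lower with glutamine and 34 with both nutrients than with neither, 13 higher and 84 lower with glutamine added to glucose, 30 higher and 32 lower with glucose added to glutamine, 0 higher (0 also by unadjusted p) and 7 lower with NH4Cl added to glucose, and 62 higher and 17 lower with NH4Cl in place of glutamine. With NH4Cl added to glucose, a fit of the compared media alone gave 5 higher, DESeq2 0 higher, and no filter on low counts 34 lower, and the cause of these 3 changes was not tested. Leaving out single libraries gave 153 to 156 higher and 30 to 33 lower with glucose alone, 106 to 113 and 42 to 48 with glutamine alone, 119 to 127 and 46 to 53 with both against neither, and 21 to 27 and 123 to 133 with glutamine added to glucose. It gave 54 to 67 and 55 to 65 with glucose added to glutamine, 0 to 5 and 43 to 55 with NH4Cl added to glucose, 102 to 114 and 26 to 35 with NH4Cl in place of glutamine, and 24 to 29 above and 131 to 138 below 0 for the interaction. Where a library is left out, the remaining 2 of that medium are assumed to vary like the others. The replicate numbers did not pair the libraries (30 same-numbered pairs, lowest r -0.038; for 2 of 15 libraries the best correlation was within their number). With the replicate number as a block, 154 were higher and 34 lower with glucose alone and 28 higher and 132 lower with glutamine added to glucose, and no count of calls moved by over 1.5 times. Among the named genes, 2010 values under these settings kept their direction and side of the threshold, 20 lost the call and 0 reversed. The lost calls were those of ZNF841, ZNF579 and ZNF226 with NH4Cl under several settings, and of ZNF699 with NH4Cl against a 1.2-fold change (adjusted p = 0.0925). A gap of 0.5 Mb gave 10 clusters in place of 9. Depth limits the genes below 1 CPM, where 3 counts amount to 0.15 to 0.201 CPM.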
